A study of Danio rerio with 15 samples.

Results

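Perfluorobutane sulfonamide (FBSA) and perfluorobutane sulfonic acid (PFBS) carry the same perfluorobutyl chain and differ in the head group at its end. Their effects on transcript levels in zebrafish embryos were compared with each other directly. The comparison used 6 of the 15 libraries of the series, 3 of FBSA and 3 of PFBS, taken by the compound named in the sample labels. The other groups, the control and the compounds PFPeA and 42FTS, entered the fit to share 1 estimate of the spread between libraries. Values of their libraries are given below only to place those of FBSA and PFBS. All embryos were of the Tropical 5D line, a wild-type laboratory strain, and had been freed of their chorion before exposure. FBSA embryos were kept in 47 uM FBSA and PFBS embryos in 47 uM PFBS, and control embryos in 0 uM. PFPeA and 42FTS embryos were kept in 47 uM of the compound named. Exposure lasted from 8 to 48 hours post fertilization, with 0.5% methanol in every group. Each library held messenger RNA of 10 pooled whole embryos. The concentration compared is that of the medium: how much of either compound reached the tissues was not analysed here. The series' title puts the question whether a sulfonamide head group sets the developmental toxicity of short fluorinated chains apart, and 1 pair of compounds bears on it here.

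Per- and polyfluoroalkyl substances are surfactants whose fluorinated chain is not broken down by animals. The head group sets their charge: a sulfonic acid is a strong acid and is ionized in water, while a sulfonamide is a weak acid and can also be present in its neutral form. In a zebrafish embryo at this stage the heart beats, blood circulates, ion-transporting cells of the skin do the work of gills, and the nervous system still holds dividing progenitors next to young neurons.

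Libraries of the 2 groups were sequenced to like depth, with 32420346 to 32686343 reads counted in genes in FBSA and 32195020 to 32367808 in PFBS, and 24552649 to 32630731 in the control. The spread within FBSA was wide. FBSA 2 stood apart: on the first principal component of the 6 libraries, which held 32.5% of the variance, it scored 65.1, against 20.4 and 19.1 for FBSA 1 and FBSA 3 and -37.0, -34.9 and -32.8 for PFBS a, 2 and b. A pair of PFBS columns carries the same header name, and columns were matched to samples by name alone, so these libraries are called PFBS a and PFBS b without a replicate number, and the remaining one is PFBS 2. Of 28 tested markers for 14 tissues of the embryo, 24 were above 1 CPM (edgeR's counts scaled to library size) in each FBSA, PFBS and control library. Exceptions included the macrophage gene mpeg1.1, at 0.0624 to 0.814 CPM, and the insulin gene ins, at 0.0939 to 5.60 CPM. The labels do not say whether pools came from separate clutches, so a p-value speaks of the spread among these pools only. In RNA of whole embryos, fewer cells of a type and less RNA per cell cannot be told apart.

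FBSA embryos differed from PFBS embryos in 2423 of 23874 genes tested (10.1%), of which 1234 were higher in FBSA (5.17% of genes tested) and 1189 lower (4.98%). The test was edgeR's quasi-likelihood F-test on the deposited counts, two-sided, with p-values adjusted by the Benjamini-Hochberg method across the whole table and called at 0.05. Every adjusted p below comes from it. Differences are given as log2 of FBSA over PFBS with the standard error (SE) or the 95% confidence interval (CI). Most were small: 87.9% of the called genes differed by under 2-fold, the median was 1.44-fold for higher and 1.32-fold for lower genes, and 293 differed at least 2-fold, 207 higher and 86 lower. Among genes at 100 CPM or more 28.1% were called, and among those under 1 CPM 1.18%. In 74.7% of the called genes FBSA 2 was the FBSA library farthest from PFBS, and its median log2 distance was 0.579, against 0.383 for FBSA 1 and 0.371 for FBSA 3. Without FBSA 2, 1159 genes were called, 1110 of them among the 2423, and without PFBS a, PFBS 2 or PFBS b 1443, 1508 or 1642. In a fit of the 6 libraries alone 934 were called, 615 higher and 319 lower. All FBSA libraries lay on 1 side of all PFBS libraries in 2384 of the 2423 called genes and in 28.3% of all genes tested. Lack of overlap, where given below, therefore adds little to a call.

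**Figure D1:**
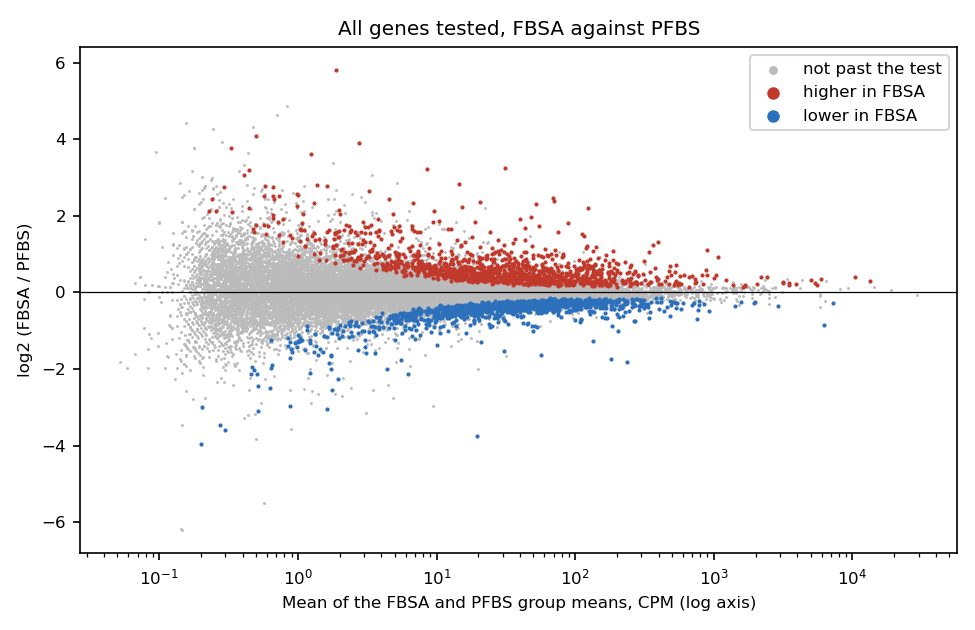
Each point is 1 of the 23874 genes tested, with the mean of the FBSA and PFBS group means in CPM on a log axis (horizontal) and log2 of FBSA over PFBS (vertical). Red points are the 1234 genes higher in FBSA, blue points the 1189 lower, and grey points did not pass the test. Few genes under 1 CPM passed, and most called genes lie within 1 log2 unit of 0.

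A difference could also be bounded. For 9608 genes (40.2%) the whole 95% CI of the difference between FBSA and PFBS lay within 1.5-fold to either side, and 8649 of these were not called. For 12802 genes the test was not passed and the CI was wider than that, so these data do not tell whether the compounds differ there. The share of bounded genes was 87% at 100 CPM or more, 76.3% at 10 to 100 CPM, 22.2% at 1 to 10 CPM and 0 under 1 CPM.

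Set against the same control pools, FBSA changed 2274 genes (9.53%), 1260 higher (5.28%) and 1014 lower (4.25%), and PFBS changed 0. The count for FBSA was 1020 without FBSA 2 and 1296, 1309 or 1430 without Control 1, 2 or 3. The smallest adjusted p for PFBS was 0.864, 925 genes had an unadjusted p under 0.05, and DESeq2 called 6. For 11798 genes (49.4%) the CI of PFBS over the control lay within 1.5-fold to either side. Both comparisons use the same 3 control libraries, so they are not independent of each other, and they stand here only to place the FBSA and PFBS values.

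Genes of membrane transporters were among the largest increases in FBSA over PFBS. The genes named here were the 12 largest increases and 12 largest decreases among called genes with a gene symbol, at least 1 CPM on average and all 3 FBSA libraries on 1 side of all 3 PFBS libraries, which held for 28.3% of all genes tested. Both zebrafish copies of slc16a9, of the monocarboxylate transporter family, were among them. The level of slc16a9b was 115, 138 and 101 CPM in FBSA 1, 2 and 3, 25.4, 19.5 and 19.5 CPM in PFBS a, 2 and b and 27.6, 21.6 and 23.4 CPM in Control 1, 2 and 3. For slc16a9b the log2 difference was 2.46 (SE 0.14, adjusted p = 1.11e-06). Without FBSA 2 it was log2 2.33. Every FBSA library was several times above every PFBS library, and the PFBS and control libraries overlapped. The second copy, slc16a9a, had 4.70, 8.04 and 2.87 CPM in FBSA against 0.440, 0.317 and 0.270 CPM in PFBS (log2 3.91, SE 0.48, adjusted p = 0.000182). A further member of the family, slc16a6b, had 60.2, 74.2 and 55.9 CPM in FBSA against 17.6, 16.8 and 16.3 CPM in PFBS (log2 1.91, SE 0.15, adjusted p = 5.51e-06). The sodium and glucose cotransporter slc5a1 (3.08, 4.04 and 1.34 CPM in FBSA against 0.629, 0.412 and 0.1799 CPM in PFBS, log2 2.78) and slc25a15a (log2 2.15), the carrier of ornithine into mitochondria, were also higher. Of 38 tested genes of organic anion and monocarboxylate transport, these 3 slc16 genes were higher and slco1d1, an organic anion transporter, was lower at log2 -0.58 (12.8, 9.02 and 13.3 CPM in FBSA against 19.2, 17.2 and 16.2 CPM in PFBS). These were 10.5% of the list, against 10.1% of all genes tested. The call of slco1d1 was lost in the fit of the 6 libraries alone and without FBSA 2, PFBS a or PFBS 2 (log2 -0.59 to -0.42), and without PFBS 2 another pair of members was lower. The bounded members with the highest level were the ABC transporters abcb5 (CI 0.03 to 0.49) and abcc5 (CI -0.11 to 0.19).

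Other large increases belonged to several systems. The gene irg1l, a relative of the mammalian gene for the enzyme that makes itaconate in macrophages, had 42.1, 88.3 and 39.8 CPM in FBSA 1, 2 and 3, 6.92, 5.71 and 5.19 CPM in PFBS a, 2 and b and 6.46, 6.06 and 4.01 CPM in Control 1, 2 and 3. For irg1l the log2 difference was 3.26 (SE 0.48, adjusted p = 0.00219). FBSA 2 was well above the other FBSA libraries, all 3 lay far above PFBS, and without FBSA 2 the log2 difference was 2.79. The endosomal and lysosomal cation channel mcoln3a had 10.1, 12.6 and 11.5 CPM in FBSA against 1.92, 1.97 and 2.82 CPM in PFBS (log2 2.35, SE 0.29, adjusted p = 0.000191), with the FBSA libraries close together. The arrestin domain gene arrdc3b had 176, 282 and 151 CPM in FBSA against 53.6, 41.97 and 35.7 CPM in PFBS (log2 2.21, SE 0.30, adjusted p = 0.00155). The finTRIM family gene ftr86 had 77.2, 94.03 and 57.3 CPM in FBSA against 21.3, 20.5 and 16.8 CPM in PFBS (log2 1.96, SE 0.20, adjusted p = 0.000127). The remaining increases were lrrc58a (log2 2.45), epm2a (log2 2.05), nppb (log2 2.06) and ccdc115 (log2 2.35), whose human counterpart serves assembly of the proton pump of organelles. The call of ccdc115 was lost without FBSA 2 (log2 2.04, adjusted p = 0.0505), with 0.826, 3.04 and 2.68 CPM in FBSA against 0.220, 0.698 and 0.360 CPM in PFBS.

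The largest decrease was that of igfn1.3. This gene, of a family with immunoglobulin and fibronectin domains that skeletal muscle expresses, had 3.59, 0.469 and 4.02 CPM in FBSA 1, 2 and 3, 35.1, 37.9 and 35.9 CPM in PFBS a, 2 and b and 32.6, 29.7 and 24.9 CPM in Control 1, 2 and 3. For igfn1.3 the log2 difference was -3.75 (SE 0.46, adjusted p = 0.000865). FBSA 2 was lowest by far, and without it the log2 difference was -3.25. In the authors' deposited table its level per length averaged 0.860 ± 0.562 TPM in FBSA and 10.7 ± 0.552 TPM in PFBS (SD, n = 3 each). The muscle form of AMP deaminase, ampd1, had 136, 51.5 and 126 CPM in FBSA 1, 2 and 3, 379, 355 and 367 CPM in PFBS a, 2 and b and 339, 352 and 351 CPM in Control 1, 2 and 3. For ampd1 the log2 difference was -1.81 (SE 0.28, adjusted p = 0.00317). The PFBS and control libraries held nearly the same level. The myosin heavy chain gene myhb (0.826, 0.219 and 0.967 CPM in FBSA against 3.02, 3.33 and 3.24 CPM in PFBS, log2 -2.25) and the glycogen debranching enzyme gene aglb (1.21, 1.13 and 2.90 CPM in FBSA against 7.14, 7.11 and 6.89 CPM in PFBS, log2 -2.01) were also lower. Collagen X gene col10a1a, of maturing cartilage and bone, had 30.8, 11.6 and 41.6 CPM in FBSA against 81.5, 93.4 and 83.8 CPM in PFBS (log2 -1.62, SE 0.34, adjusted p = 0.013), with FBSA 2 lowest. The other decreases were those of gc, the vitamin D binding protein (log2 -2.09), stxbp1b (log2 -1.64), foxn1, a transcription factor of the thymus (log2 -1.63), opn6a, an opsin (log2 -1.59), lgals3bpb (log2 -1.57), tcerg1l (log2 -1.56) and mag, a myelin glycoprotein (log2 -1.51). Calls were lost for gc without FBSA 2, FBSA 3 or any 1 PFBS library (log2 -2.33 to -1.64), for stxbp1b without FBSA 1, FBSA 2, PFBS a or PFBS 2 (log2 -1.66 to -1.22) and for mag without FBSA 1, FBSA 2 or any 1 PFBS library (log2 -1.59 to -1.27). In the fit of the 6 libraries alone, 9 of the 24 lost the call, ccdc115, mag, tcerg1l, col10a1a, foxn1, stxbp1b, ampd1, gc and igfn1.3, and 15 kept it in every alternative run. Set against the control, FBSA did not pass the test for gc, stxbp1b, foxn1 and mag (log2 -1.44, -1.18, -1.10 and -0.79). Their levels in PFBS were nominally above the control (log2 0.66, 0.46, 0.54 and 0.72, not called).

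**Figure D2:**
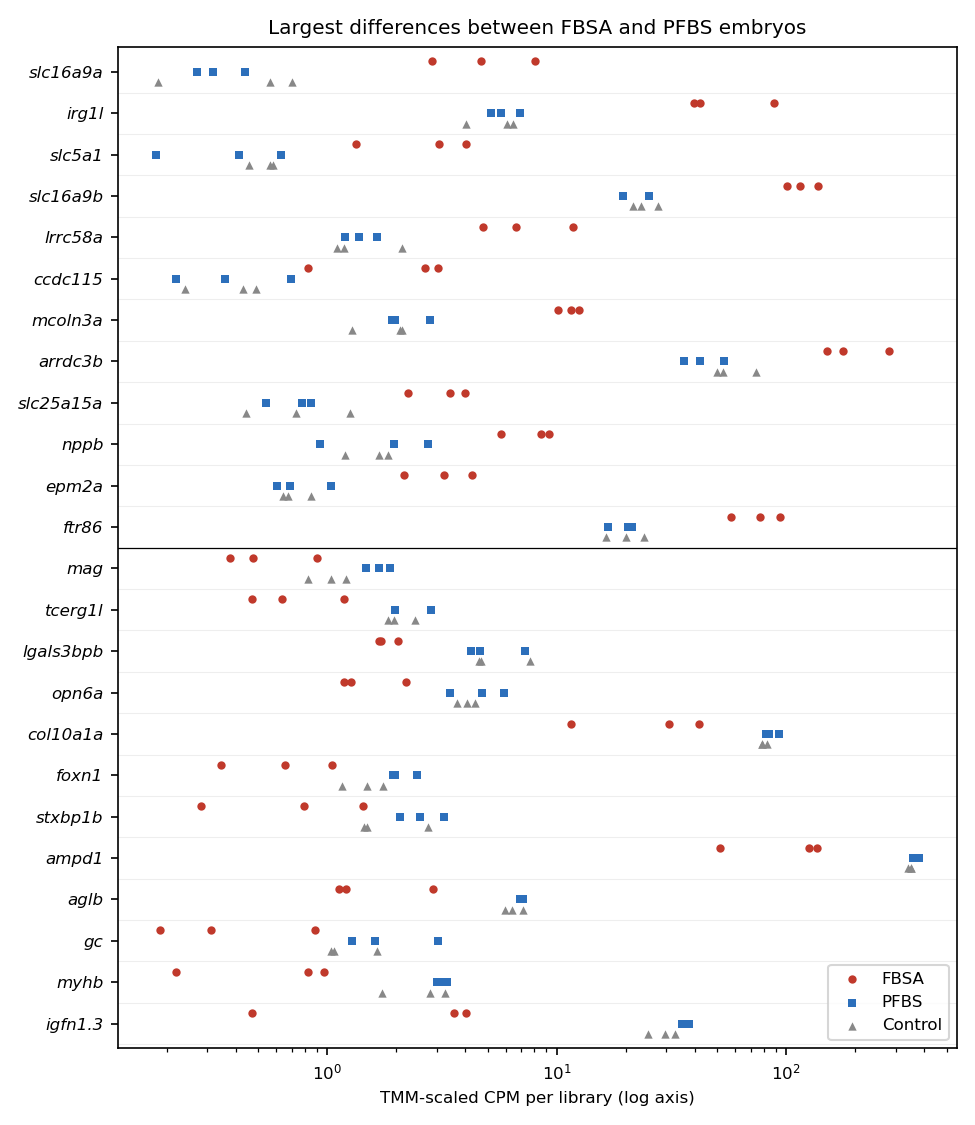
Each row is 1 of the 24 genes with the largest differences, 12 higher in FBSA above the line and 12 lower below it, and each symbol is 1 library, with FBSA (circles), PFBS (squares) and control (triangles) from top to bottom in a row and TMM-scaled CPM on a log axis. In every row the 3 FBSA symbols lie on 1 side of the 3 PFBS symbols, as the choice of genes required, and for slc16a9b they lie between 101 and 138 CPM against 19.5 to 25.4 CPM in PFBS.

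The lists of genes that follow hold 1493 tested members in 42 lists, of which 340 (22.8%) were called between FBSA and PFBS, 220 higher and 120 lower, against 10.1% of all genes tested. They were drawn up with earlier results of these data known, so their shares describe the members and are no independent support. In 19 lists over 20% of members were called and in 9 the share was at or below that of all genes tested. The called share of all genes rose with level, from 1.18% under 1 CPM to 17.7% at 10 to 100 CPM and 28.1% at 100 CPM or more. List members were not matched to all genes in level, so the 10.1% takes no account of it, here and below. The median log2 difference over all genes tested was 0.01. A list given below without its share of called members is 1 of the 19 with over 20%. Counts with a library left out stand beside those over all genes. These were 1159 without FBSA 2 and 1443, 1508 and 1642 without PFBS a, PFBS 2 and PFBS b, against 2423 with all libraries. List members named are those past the test with the largest differences, up to 4 in each direction, and the bounded ones with the highest level. In the fit of the 6 libraries alone, some of those named below lost their calls. They were sypb, ascl1a, neurog1, her2, slc1a2b, tk1, pcna, slc12a2, atp2b1a, atp1b3a, atp1a3b, ca15c, ca10a, col17a1a, prdm1a, oxt and cyp17a1. With them went sdf2l1, serpinh1b, ctsh, ctsl.1, scarb2a, ccl34a.4, tnni2b.1, pkmb, elovl2, ucp1, gsto2, gstm.1, sms and cox4i2. Without the filter on low counts, her2, rrm2, ca10a, oxt, tnni2b.1, hk1 and cox4i2 lost their calls. Where a member lost its call with 1 library left out, that library is given beside it.

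**Figure D3:**
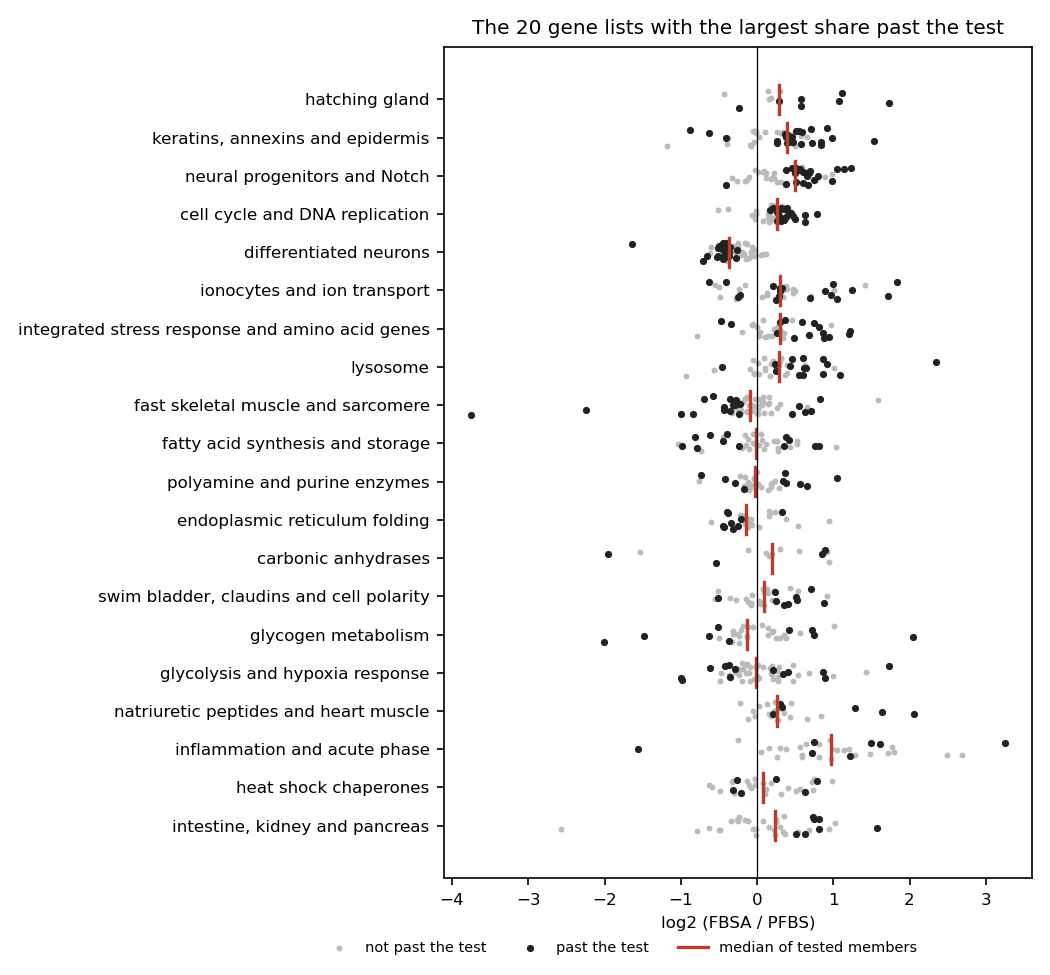
Rows are the 20 lists with the largest share of called members, from the largest share at the top, and each point is 1 tested member at its log2 of FBSA over PFBS, black where it passed the test and grey where it did not; red bars are the medians of all tested members. Medians lie at 0.50 for neural progenitors and -0.36 for differentiated neurons.

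The called genes of differentiated neurons were lower in FBSA than in PFBS, and nearly all called genes of neural progenitors were higher. Of 48 neuronal genes tested 22 were lower and 0 higher (median -0.36), and without FBSA 2 18 were lower (median -0.24). The RNA-binding protein gene elavl4, of young neurons, had 285, 221 and 290.3 CPM in FBSA 1, 2 and 3, 424, 411 and 423 CPM in PFBS a, 2 and b and 409, 407 and 414 CPM in Control 1, 2 and 3. For elavl4 the log2 difference was -0.66 (SE 0.08, adjusted p = 0.000136). All FBSA libraries lay below all others, FBSA 2 lowest, and the PFBS and control libraries overlapped. The synuclein gene sncb had 83.5, 60.1 and 83.6 CPM in FBSA against 124, 125 and 124 CPM in PFBS (log2 -0.71, SE 0.11, adjusted p = 0.00162). The synaptic vesicle gene sypb (log2 -0.53) and stxbp1b (log2 -1.64), which takes part in vesicle release, were lower too. The marker snap25a, of the vesicle fusion machinery, had 124, 118 and 122 CPM in FBSA against 157, 160.3 and 156 CPM in PFBS (log2 -0.37, SE 0.04, adjusted p = 6.2e-05). Not every neuronal gene followed: elavl3, a relative of elavl4 that is switched on earlier, was bounded at log2 0.12 (CI 0.03 to 0.21), with 1188, 1198 and 1170 CPM in FBSA against 1059, 1125 and 1088 CPM in PFBS, and rtn1a was bounded at log2 -0.10 (CI -0.21 to 0.01).

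Among neural progenitor and Notch pathway genes, 22 of 45 tested were higher in FBSA and 1 was lower (median 0.50), and without FBSA 2 17 and 1 (median 0.35). The proneural transcription factor gene ascl1a had 72.7, 114 and 63.3 CPM in FBSA 1, 2 and 3, 38.98, 40.7 and 34.1 CPM in PFBS a, 2 and b and 44.8, 44.998 and 36.5 CPM in Control 1, 2 and 3. For ascl1a the log2 difference was 1.14 (SE 0.20, adjusted p = 0.00424). FBSA 2 was well above the other FBSA libraries, which were still above every PFBS and control library, and without it the log2 difference was 0.85. The Notch ligand gene dlc had 19.02, 27.98 and 20.4 CPM in FBSA against 10.6, 10.25 and 11.7 CPM in PFBS (log2 1.05, SE 0.15, adjusted p = 0.000625). Over the alternative runs the log2 difference of dlc was 0.75 to 1.16. Another proneural factor gene, neurog1, had 86.01, 103 and 61.2 CPM in FBSA against 49.3, 40.9 and 36.3 CPM in PFBS (log2 0.98, SE 0.17, adjusted p = 0.0036). The repressor gene her2 (13.1, 36.2 and 13.7 CPM in FBSA against 8.14, 8.66 and 9.89 CPM in PFBS, log2 1.24) rested on FBSA 2: its call was lost without FBSA 2 (log2 0.59) or any 1 PFBS library (log2 1.18 to 1.32). The lower member was slc1a2b, a glutamate transporter of glia, at log2 -0.40 (503, 369.6 and 505 CPM in FBSA against 638, 597 and 585 CPM in PFBS). Of the bounded members insm1a, a factor of newborn neurons, was also called higher (log2 0.38, CI 0.24 to 0.53), and the radial glia gene fabp7a was not (CI -0.56 to 0.03).

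The called genes of the cell cycle and DNA replication were higher too. Of 43 tested 21 were higher in FBSA and 0 lower (median 0.26). Counts moved more than in the neural lists: 9 were called without FBSA 2 (median 0.19) and 11 without each of PFBS a, PFBS 2 and PFBS b. Over all genes tested the 2423 calls became 1159 without FBSA 2 and 1443, 1508 and 1642 without PFBS a, PFBS 2 and PFBS b. In the fit of the 6 libraries alone 934 of all genes were called, and tk1 and pcna were among those that lost their calls. The cyclin D gene ccnd1 had 393, 553 and 426 CPM in FBSA against 297, 302 and 289 CPM in PFBS (log2 0.63, SE 0.10, adjusted p = 0.00129). The replication licensing gene cdt1 had 27.6, 38.2 and 30.99 CPM in FBSA against 21.8, 19.5 and 21.4 CPM in PFBS (log2 0.63, SE 0.13, adjusted p = 0.00719). The nucleotide synthesis genes rrm2 (log2 0.78) and tk1 (log2 0.50) lost their calls without FBSA 2 or any 1 PFBS library (log2 0.68 to 0.88 and 0.29 to 0.54), and rrm2 also without FBSA 1 (log2 0.69). The replication clamp gene pcna was higher but bounded (log2 0.26, CI 0.15 to 0.36, 591, 659 and 595 CPM in FBSA against 527, 534 and 486 CPM in PFBS), and rrm1 was bounded and not called (log2 0.16, CI 0.04 to 0.27).

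Mean levels of the lists show how the libraries lay. The score of a library is the mean over a list of log2(CPM + 0.5) minus the mean of the PFBS libraries. For neurons it was -0.22, -0.52 and -0.23 in FBSA 1, 2 and 3, 0.00, -0.01 and 0.00 in PFBS a, 2 and b and -0.03, -0.07 and -0.11 in Control 1, 2 and 3. For progenitors it was 0.36, 0.57 and 0.28 in FBSA 1, 2 and 3, 0.04, 0.01 and -0.05 in PFBS a, 2 and b and 0.10, 0.05 and 0.04 in Control 1, 2 and 3. For the cell cycle it was 0.17, 0.39 and 0.11 in FBSA 1, 2 and 3, 0.04, 0.00 and -0.04 in PFBS a, 2 and b and -0.01, 0.01 and 0.05 in Control 1, 2 and 3. In each of these lists all 3 FBSA libraries lay outside the range of the PFBS libraries, and FBSA 2 farthest. Control libraries lay outside that narrow range too, every one for neurons and some for the other lists. They were nearer to it than any FBSA library.

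**Figure D4:**
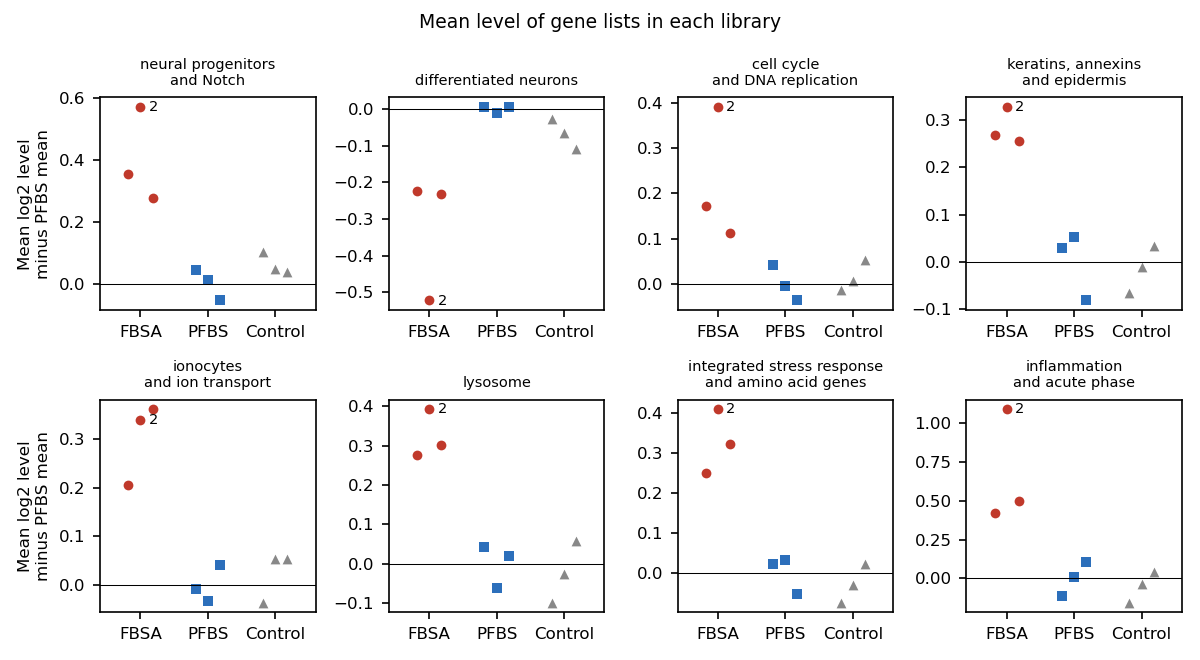
Panels show 8 lists, and each symbol is 1 library of FBSA (circles), PFBS (squares) or control (triangles), at its mean log2(CPM + 0.5) over the list minus the mean of the PFBS libraries; the symbol marked 2 is FBSA 2. FBSA libraries lie outside the range of PFBS in all 8 panels, FBSA 2 is farthest in 7 of them, and the vertical axes differ between panels. Some control symbols lie outside that range as well.

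Among genes of ion transport and of the skin, more were higher than lower in FBSA and others did not pass the test. Of 40 tested ionocyte genes 14 were higher and 4 lower (median 0.30), and 10 and 2 without FBSA 2 (median 0.27). The sodium pump subunit gene atp1b1b had 103, 110.5 and 112 CPM in FBSA 1, 2 and 3, 56.4, 51.5 and 55.8 CPM in PFBS a, 2 and b and 56.6, 54.2 and 56.1 CPM in Control 1, 2 and 3. For atp1b1b the log2 difference was 0.99 (SE 0.06, adjusted p = 1.22e-06). The FBSA libraries lay close together well above every PFBS and control library, with FBSA 2 among them. The catalytic pump subunit gene atp1a1a.2 had 196, 189 and 187 CPM in FBSA against 104, 102 and 102 CPM in PFBS (log2 0.90, SE 0.07, adjusted p = 2.86e-06). Its neighbour atp1a1a.3 had 27.5, 25.1 and 38.4 CPM in FBSA against 18.99, 19.2 and 18.2 CPM in PFBS (log2 0.69, SE 0.14, adjusted p = 0.00674). The copy with the most counts, atp1a1a.1, was bounded at log2 0.13 (CI 0.01 to 0.24), and atp1a1a.5 was at log2 0.48 (CI 0.01 to 0.94), past neither the test nor the bound. The sequences of these copies were not compared here, and reads could be split between them. Other called pump genes went both ways, given here as the range with a library left out. The genes atp1a1a.4 (log2 0.26 to 0.35), atp1b1a (0.26 to 0.32) and atp1b3a (0.18 to 0.24) were higher. Lower were atp1a3a (log2 -0.58 to -0.39), atp1b2a (-0.42 to -0.27) and atp1a3b (-0.51 to -0.24). The call of atp1b3a was lost without FBSA 2, FBSA 3, PFBS 2 or PFBS b, and that of atp1a3b without PFBS a or PFBS b.

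The calcium channel gene trpv6 had 4.67, 3.32 and 5.77 CPM in FBSA against 2.07, 0.730 and 1.05 CPM in PFBS (log2 1.83, SE 0.37, adjusted p = 0.00562). The potassium channel gene kcnj1a.3 had 7.24, 8.67 and 6.83 CPM in FBSA against 1.73, 2.63 and 2.55 CPM in PFBS (log2 1.72, SE 0.24, adjusted p = 0.000504). The sodium chloride cotransporter gene slc12a10.2 had 4.38, 4.48 and 6.11 CPM in FBSA against 1.82, 1.68 and 2.82 CPM in PFBS (log2 1.24, SE 0.25, adjusted p = 0.00543). FBSA and PFBS libraries did not overlap in any of them, as in 28.3% of all genes tested, and trpv6 and slc12a10.2 mark different kinds of ionocyte. Lower members were the nuclear receptor gene esrrga (33.4, 28.9 and 32.8 CPM in FBSA against 45.8, 51.4 and 49.8 CPM in PFBS, log2 -0.63), the ammonium transporter gene rhbg (log2 -0.41), the cotransporter gene slc12a2 (log2 -0.25) and the calcium pump gene atp2b1a (log2 -0.22). The call of rhbg was lost without FBSA 2 (log2 -0.35), and that of atp2b1a without FBSA 2, PFBS a or PFBS 2 (log2 -0.22 to -0.16). The ionocyte transcription factor gene foxi3a was at log2 0.30 (CI -0.06 to 0.66), which is neither called nor bounded.

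Carbonic anhydrases supply ionocytes and red cells with acid and base equivalents, and sulfonamides with a free amide group are a known class of their inhibitors. Of 13 tested 2 were higher in FBSA and 2 lower. The ionocyte form ca2 had 241, 267 and 215 CPM in FBSA 1, 2 and 3, 150.3, 126 and 125 CPM in PFBS a, 2 and b and 138, 129 and 152 CPM in Control 1, 2 and 3. For ca2 the log2 difference was 0.85 (SE 0.09, adjusted p = 5.12e-05). Each FBSA library was above each PFBS and control library, and the log2 difference was 0.77 without FBSA 2. The membrane form ca9, a target of the hypoxia pathway, had 13.2, 19.8 and 12.1 CPM in FBSA against 8.43, 7.96 and 7.97 CPM in PFBS (log2 0.89, SE 0.20, adjusted p = 0.0102). Its call was lost without FBSA 2 (log2 0.64). The lower members ca15c (0.127, 0.2504 and 0.405 CPM in FBSA against 0.723, 0.888 and 1.47 CPM in PFBS, log2 -1.96) and ca10a (log2 -0.54) lost their calls without FBSA 2 or PFBS b (log2 -1.93 to -1.61 for ca15c, -0.49 to -0.47 for ca10a), and ca10a also without FBSA 1, FBSA 3 or PFBS 2. The red cell form cahz was bounded (CI -0.36 to 0.12), as was ca15a (CI -0.09 to 0.31). Enzyme activity was not analysed here.

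In the epidermis list 23 of 46 tested genes were higher in FBSA and 3 lower (median 0.39), and 18 and 3 without FBSA 2 (median 0.29). The annexin gene anxa1b had 171, 163 and 162 CPM in FBSA 1, 2 and 3, 59.07, 62.9 and 50.001 CPM in PFBS a, 2 and b and 55.2, 61.4 and 64.1 CPM in Control 1, 2 and 3. For anxa1b the log2 difference was 1.53 (SE 0.11, adjusted p = 3.18e-06). All 3 FBSA libraries lay far above the PFBS and control libraries, and FBSA 2 lay with the other FBSA libraries. Claudins seal the contacts between skin cells. The claudin gene cldne had 189, 281 and 196 CPM in FBSA against 108, 119.6 and 109.7 CPM in PFBS (log2 0.98, SE 0.12, adjusted p = 0.000277). For cldnf the levels were 13.7, 21.8 and 18.3 CPM in FBSA against 10.19, 9.64 and 8.63 CPM in PFBS (log2 0.92, SE 0.15, adjusted p = 0.00176). For cldnb they were 121, 171 and 119 CPM in FBSA against 82.2, 76.4 and 70.8 CPM in PFBS (log2 0.84, SE 0.11, adjusted p = 0.000399). The lower genes were the keratin gene krt1-19d (10.4, 7.83 and 10.9 CPM in FBSA against 17.4, 17.2 and 18.9 CPM in PFBS, log2 -0.88), col17a1a (log2 -0.63), a collagen that anchors basal skin cells, and anxa1c (log2 -0.41). The bounded members with the highest level were the skin keratin genes cyt1 (CI -0.13 to 0.19) and cyt1l (CI -0.30 to 0.22). The epidermis markers krt4 (log2 -0.38, CI -1.25 to 0.48) and krt5 (log2 -0.08, CI -0.76 to 0.60) were neither called nor bounded. The level of krt4 ranged from 3170 to 9769 CPM over the FBSA, PFBS and control libraries. Claudin, annexin and keratin genes belong to gene families. Whether reads were split between related members was not tested.

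The hatching gland releases enzymes that digest the chorion, which had been removed from all embryos here. Of 12 tested 6 were higher in FBSA and 1 lower, and 4 and 0 without FBSA 2. The hatching enzyme gene he1a had 1258, 1322 and 1090 CPM in FBSA 1, 2 and 3, 657, 540.4 and 504 CPM in PFBS a, 2 and b and 639.8, 705 and 677 CPM in Control 1, 2 and 3. For he1a the log2 difference was 1.11 (SE 0.10, adjusted p = 1.51e-05). The copy he1b had 282, 256 and 225 CPM in FBSA against 131, 139 and 92.4 CPM in PFBS (log2 1.07, SE 0.16, adjusted p = 0.00188). FBSA and PFBS libraries did not overlap in either, as in 28.3% of all genes tested, and reads may be shared between these copies. The cathepsin gene ctslb, which the gland also expresses, had 96.8, 79.3 and 78.7 CPM in FBSA against 35.8, 21.6 and 19.4 CPM in PFBS (log2 1.73, SE 0.27, adjusted p = 0.00257). The secretory protein gene agr2 (log2 0.57) lost its call without FBSA 2 or PFBS b (log2 0.49 to 0.49), and the lower member prdm1a (log2 -0.24), a transcription factor, without FBSA 2, FBSA 3, PFBS a or PFBS b (log2 -0.24 to -0.21).

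Natriuretic peptide genes of the heart and the prolactin gene of the pituitary were higher in FBSA. The atrial natriuretic peptide gene nppa had 50.6, 53.996 and 47.5 CPM in FBSA 1, 2 and 3, 20.7, 23.2 and 18.6 CPM in PFBS a, 2 and b and 18.6, 17.8 and 22.2 CPM in Control 1, 2 and 3. For nppa the log2 difference was 1.28 (SE 0.14, adjusted p = 6.16e-05). The second natriuretic peptide gene, nppb, had 5.71, 9.23 and 8.54 CPM in FBSA against 1.95, 2.76 and 0.929 CPM in PFBS (log2 2.06, SE 0.41, adjusted p = 0.00561). In both the FBSA libraries stood clear of PFBS and control, and without FBSA 2 the log2 differences were 1.24 and 1.93. Of 26 tested genes of heart muscle and natriuretic peptides 6 were higher and 0 lower (median 0.27), and 3 were higher without FBSA 2. The cardiac actin gene actc1a (log2 0.33) was also within the bound (CI 0.16 to 0.49) and lost its call without FBSA 2, PFBS 2 or PFBS b (log2 0.26 to 0.31). The heart titin gene ttn.2 was bounded (CI -0.23 to 0.00).

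The prolactin gene prl, whose hormone governs ion uptake in fish, had 15.3, 13.2 and 15.6 CPM in FBSA 1, 2 and 3, 4.12, 3.81 and 4.32 CPM in PFBS a, 2 and b and 3.61, 3.08 and 2.77 CPM in Control 1, 2 and 3. For prl the log2 difference was 1.85 (SE 0.18, adjusted p = 2.97e-05). The FBSA libraries lay close together and far above every PFBS and control library, and without FBSA 2 the log2 difference was 1.93. In the authors' deposited table prl averaged 14.6 ± 0.731 TPM in FBSA and 4.197 ± 0.556 TPM in PFBS (SD, n = 3 each). Among 20 tested hormone and pituitary genes the only other call was oxt, the oxytocin gene, lower at log2 -1.24 (0.889, 0.501 and 0.779 CPM in FBSA against 1.76, 1.62 and 1.77 CPM in PFBS), which was lost without any 1 of the 6 libraries (log2 -1.41 to -1.03). Called genes were 10% of that list, against 10.1% of all genes tested. Of 27 genes of thyroid, glucocorticoid and steroid signalling 4 were higher and 1 lower (18.5%), and without FBSA 2 1 and 1. The higher one kept was sgk1, a kinase that acts on ion channels, with 59.8, 57.97 and 53.03 CPM in FBSA against 30.1, 39.5 and 35.6 CPM in PFBS (log2 0.70, SE 0.14, adjusted p = 0.00577). The lower one was the steroid enzyme gene cyp17a1 (14.7, 11.96 and 16.9 CPM in FBSA against 21.2, 21.95 and 20.1 CPM in PFBS, log2 -0.54). Without PFBS a 1 was higher, and without PFBS 2 or PFBS b 2.

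Called genes of the stress pathways differed in both directions. The integrated stress response raises transcription factors of the ATF4 group and their targets for amino acid uptake and synthesis when translation is slowed, and the unfolded protein response raises chaperones of the endoplasmic reticulum. Of 36 tested genes of the first 13 were higher in FBSA and 2 lower (median 0.30), and 9 and 2 without FBSA 2. Of 29 tested chaperone and folding genes 1 was higher and 8 were lower (median -0.14), and 4 were lower without each of FBSA 2, PFBS a and PFBS 2. The score of the stress response list was 0.25, 0.41 and 0.32 in FBSA 1, 2 and 3, 0.02, 0.03 and -0.05 in PFBS a, 2 and b and -0.08, -0.03 and 0.02 in Control 1, 2 and 3, and 1 library of another compound, PFPeA 1, scored 0.25, while the other libraries of the series were at 0.11 or lower. For the folding list the score was -0.05, -0.03 and -0.13 in FBSA 1, 2 and 3, 0.04, 0.10 and -0.14 in PFBS a, 2 and b and 0.07, 0.04 and 0.13 in Control 1, 2 and 3. The groups overlapped there, with PFBS b below every FBSA library. The cationic amino acid transporter gene slc7a3a had 74.005, 98.8 and 78.97 CPM in FBSA 1, 2 and 3, 42.8, 45.5 and 42.4 CPM in PFBS a, 2 and b and 41.6, 41.6 and 41.03 CPM in Control 1, 2 and 3. For slc7a3a the log2 difference was 0.95 (SE 0.11, adjusted p = 0.000152). The stress sensor gene sesn2 had 19.05, 25.1 and 18.99 CPM in FBSA against 8.96, 11.6 and 6.71 CPM in PFBS (log2 1.21, SE 0.20, adjusted p = 0.00214). All FBSA libraries were above all others for slc7a3a, and FBSA 2 highest. The transcription factor gene atf4a was higher by less, at log2 0.30 (CI 0.18 to 0.43, 537, 643 and 579 CPM in FBSA against 475, 489 and 461 CPM in PFBS). Calls of cebpb (log2 1.22) were lost without FBSA 2 or any 1 PFBS library (log2 1.05 to 1.26) and of atf5b (log2 0.88) without FBSA 2 or PFBS b (log2 0.76 to 0.83). The lower members were the amino acid transporter gene slc38a2 (77.9, 77.7 and 89.7 CPM in FBSA against 104, 107 and 129 CPM in PFBS, log2 -0.47) and the lipoprotein receptor gene vldlr (log2 -0.35).

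Among the folding genes the calcium-binding chaperone gene calr had 111, 95.5 and 101 CPM in FBSA against 143, 127 and 132 CPM in PFBS (log2 -0.38, SE 0.08, adjusted p = 0.00643). The cochaperone gene dnajb11 had 54.6, 46.5 and 52.04 CPM in FBSA against 70.5, 72.6 and 63.6 CPM in PFBS (log2 -0.43, SE 0.09, adjusted p = 0.00527). The disulfide isomerase gene pdia4 had 71.6, 66.7 and 60.3 CPM in FBSA against 92.5, 88.9 and 78.8 CPM in PFBS (log2 -0.39, SE 0.08, adjusted p = 0.0057). Each FBSA library was below each PFBS library in all 3, as in 13.7% of all genes tested. The gene sdf2l1 (log2 -0.44) lost its call without FBSA 2, PFBS a or PFBS 2 (log2 -0.41 to -0.38). The higher member was herpud1, of the degradation of misfolded proteins (45.3, 47.95 and 43.8 CPM in FBSA against 35.96, 36.2 and 36.6 CPM in PFBS, log2 0.33), and xbp1, the transcription factor of the unfolded protein response, was bounded at log2 0.16 (CI 0.03 to 0.29). Of 29 heat shock chaperones 3 were higher and 3 lower, led by serpinh1b, a collagen chaperone, at log2 0.79 (43.4, 69.5 and 58.3 CPM in FBSA against 35.96, 35.9 and 27.3 CPM in PFBS). The abundant chaperone gene hsp90ab1 was higher by a small step (log2 0.24, SE 0.04, adjusted p = 0.00155), with 5696, 6047 and 5810 CPM in FBSA against 4902, 5068 and 4846 CPM in PFBS, and hspa8 was bounded (CI -0.20 to 0.35). Without FBSA 2 2 heat shock genes were higher and 2 lower, and 1 was lower without PFBS a or PFBS 2. Of 33 antioxidant genes 5 were higher, 8 without FBSA 1 and 2 without FBSA 2 or PFBS b, and 1 was lower without FBSA 3. They held the ferritin gene fth1a at log2 0.46 (855, 1074 and 950.05 CPM in FBSA against 666, 741 and 681 CPM in PFBS) and the regulator gene nfe2l2a at log2 0.44. Of 30 p53 targets 4 were higher (13.3%, against 10.1% of all genes tested), among them the growth arrest gene btg2 (log2 0.67). Without FBSA 1 7 were higher, and without FBSA 2, PFBS 2 or PFBS b 3.

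**Figure D5:**
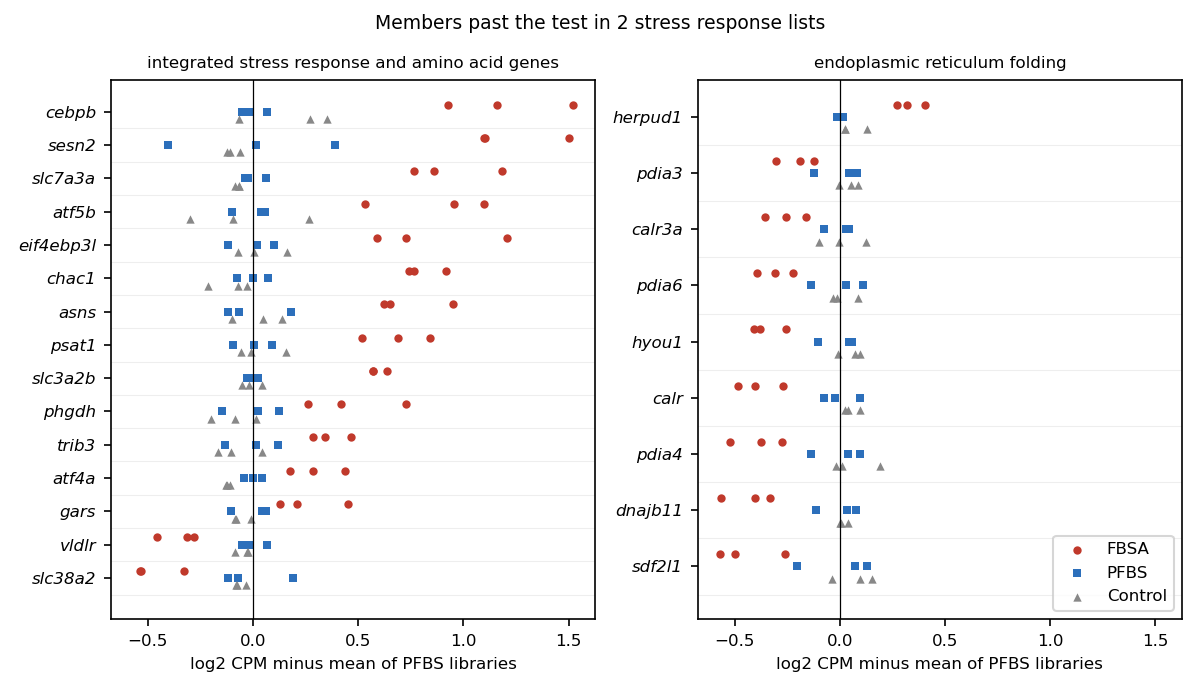
Each row is a called member of the integrated stress response list (left) or of the endoplasmic reticulum folding list (right), and each symbol is 1 library of FBSA (circles), PFBS (squares) or control (triangles), at its log2 CPM minus the mean of the PFBS libraries. On the left FBSA lies to the right of PFBS in 13 of 15 rows, and on the right FBSA lies to the left of PFBS in 8 of 9.

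In the lysosome list most called genes were higher. Of 38 tested 14 were higher in FBSA and 1 lower (median 0.29), and 9 were higher without each of FBSA 2, PFBS 2 and PFBS b. The protease gene ctsla, cathepsin L, had 1296, 1475 and 1468 CPM in FBSA 1, 2 and 3, 762, 763 and 719 CPM in PFBS a, 2 and b and 785, 799.6 and 819.5 CPM in Control 1, 2 and 3. For ctsla the log2 difference was 0.92 (SE 0.07, adjusted p = 3.06e-06). All FBSA libraries lay far above all PFBS and control libraries. With it and mcoln3a, ctsh (log2 0.87) and ctsl.1 (log2 1.09) had the largest increases, but the call of ctsh was lost without FBSA 2, PFBS a or PFBS b (log2 0.63 to 0.85) and that of ctsl.1 without any library but FBSA 3 (log2 0.96 to 1.11). The membrane protein gene scarb2a was lower (log2 -0.46), a call lost without PFBS b (log2 -0.33), and the proton pump gene atp6v0ca (CI -0.01 to 0.23) and the protease gene ctsf (CI -0.16 to 0.07) were bounded. Of 29 genes of autophagy and mTOR signalling 2 were higher (6.9%), below the 10.1% called among all genes tested. They were sesn2 and the translation repressor gene eif4ebp3l (72.1, 110.5 and 79.1 CPM in FBSA against 51.3, 48.4 and 44.03 CPM in PFBS, log2 0.86). Both calls passed with each library left out.

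Immune genes had wide intervals. Of 32 tested genes of inflammation 6 were higher and 1 lower, at a median of 0.96, and 2 were higher without FBSA 2 (median 0.65) or PFBS a and 3 without PFBS 2. Only 1 member, irf7, was bounded within 1.5-fold (CI -0.25 to 0.57). The score of the list was 0.42, 1.09 and 0.50 in FBSA 1, 2 and 3, -0.11, 0.01 and 0.10 in PFBS a, 2 and b and -0.16, -0.04 and 0.04 in Control 1, 2 and 3. FBSA 2 lay far above the other FBSA libraries, which lay above PFBS. Single libraries of other compounds in the series were high as well, PFPeA 1 at 1.3 and 42FTS 2 at 0.73, so pools of 1 group could differ by as much as FBSA from PFBS. The chemokine gene ccl34a.4 (7.21, 12.2 and 4.08 CPM in FBSA against 1.98, 3.58 and 2.098 CPM in PFBS, log2 1.62) lost its call without FBSA 2, PFBS a or PFBS b (log2 1.15 to 1.49). Of 24 genes of macrophages and neutrophils 4 were higher (16.7%, against 10.1% of all genes tested), and 2 without FBSA 2 or any 1 PFBS library. Among the higher genes was the chemokine receptor gene cxcr4b (24.1, 25.6 and 18.1 CPM in FBSA against 15.8, 14.4 and 14.4 CPM in PFBS, log2 0.60). The neutrophil peroxidase gene mpx was bounded (CI -0.16 to 0.33). This list scored 0.26, 0.59 and 0.26 in FBSA 1, 2 and 3, and 0.30 in PFPeA 1. Of 25 complement genes 4 were higher (16%), and 3 without FBSA 2, and 1 was lower without PFBS b. The complement list scored 0.50, 0.34 and 0.32 in FBSA 1, 2 and 3, and 0.40 in PFPeA 1. The complement factor I gene cfi had 145, 155 and 131 CPM in FBSA against 87.05, 88.2 and 74.5 CPM in PFBS (log2 0.79, SE 0.10, adjusted p = 0.000441). The terminal component gene c9 had 374, 440.01 and 405 CPM in FBSA against 291, 281 and 271 CPM in PFBS (log2 0.53, SE 0.09, adjusted p = 0.00183).

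More genes of fast muscle were lower than higher. Of 61 tested genes of fast muscle 16 were lower in FBSA and 5 higher (median -0.09), and 9 and 3 without FBSA 2. The higher members were 2 without PFBS a or PFBS 2 and 1 without PFBS b. The skeletal actin gene acta1b had 5235, 3581 and 4477 CPM in FBSA 1, 2 and 3, 8950, 8167 and 6709 CPM in PFBS a, 2 and b and 7957, 7668 and 7503 CPM in Control 1, 2 and 3. For acta1b the log2 difference was -0.84 (SE 0.12, adjusted p = 0.00134). Every FBSA library was below every PFBS and control library, and without FBSA 2 the log2 difference was -0.70. The troponin gene tnni2b.2 had 38.1, 26.9 and 33.9 CPM in FBSA against 63.5, 68.2 and 65.6 CPM in PFBS (log2 -0.997, SE 0.14, adjusted p = 0.000866). Its neighbour tnni2b.1 was higher (log2 0.83), a call lost without any 1 PFBS library (log2 0.76 to 0.88). The intermediate filament gene desma was higher, with 592, 814 and 583 CPM in FBSA against 389, 412 and 413 CPM in PFBS (log2 0.71, SE 0.12, adjusted p = 0.00256). The calcium pump gene of muscle, atp2a1, was bounded at log2 0.06 (CI -0.06 to 0.18). Of 39 genes of slow muscle and muscle formation 3 were higher and 3 lower (15.4%, against 10.1% of all genes tested), and 1 and 0 without FBSA 2. Without FBSA 3 5 were higher, without PFBS a or PFBS b 1, and 0 were lower without PFBS a. The higher one without FBSA 2 was myod1, a factor that starts muscle differentiation (23.5, 28.9 and 28.1 CPM in FBSA against 19.9, 20.05 and 15.9 CPM in PFBS, log2 0.53).

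In glycogen metabolism 4 of 34 tested genes were higher and 5 lower, and 3 and 3 without FBSA 2. The glycogen phosphatase gene epm2a had 4.29, 2.16 and 3.24 CPM in FBSA against 1.04, 0.603 and 0.690 CPM in PFBS (log2 2.05, SE 0.32, adjusted p = 0.00128). The liver form of glycogen synthase, gys2, was higher (22.99, 29.8 and 25.1 CPM in FBSA against 16.3, 14.1 and 16.1 CPM in PFBS, log2 0.74). The muscle form, gys1, was lower (61.5, 51.1 and 72.4 CPM in FBSA against 104, 87.9 and 93.7 CPM in PFBS, log2 -0.63). Neither had overlap, as in 28.3% of all genes tested. With aglb, the phosphorylase kinase gene phka1b was lower (0.762, 0.501 and 0.998 CPM in FBSA against 2.48, 2.06 and 1.80 CPM in PFBS, log2 -1.48), and pygma, muscle glycogen phosphorylase, was bounded (CI -0.11 to 0.24). Without FBSA 3 or any 1 PFBS library 2 were higher, and 3 were lower without PFBS a or PFBS b.

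In glycolysis and the hypoxia response 6 of 54 were higher and 7 lower, and 4 and 5 without FBSA 2. The lactate dehydrogenase gene ldha had 152, 109 and 148 CPM in FBSA 1, 2 and 3, 297, 284 and 236 CPM in PFBS a, 2 and b and 269, 241 and 238 CPM in Control 1, 2 and 3. For ldha the log2 difference was -0.997 (SE 0.11, adjusted p = 0.000174). The FBSA libraries lay far below the others. The pyruvate kinase gene pkmb was lower (429, 294 and 419 CPM in FBSA against 599, 574 and 586 CPM in PFBS, log2 -0.62), the glucose transporter gene slc2a12 was higher (9.52, 13.1 and 8.14 CPM in FBSA against 3.36, 2.89 and 2.998 CPM in PFBS, log2 1.73, SE 0.23, adjusted p = 0.000324), and gapdh was bounded (CI -0.11 to 0.15). The call of hk1 (log2 -0.99) was lost without any library but PFBS 2 (log2 -1.05 to -0.70). Of 24 genes of AMP deaminase and creatine kinase ampd1 and adssl1 (198, 153 and 176 CPM in FBSA against 285, 258 and 268 CPM in PFBS, log2 -0.62), which work in the same purine nucleotide cycle of muscle, were lower, and the creatine kinase gene ckmb was bounded (CI 0.00 to 0.21). Called genes were 8.33% of that list, below the 10.1% of all genes tested. Of 65 nuclear genes of oxidative phosphorylation 9 were lower and 1 higher, cox4i2 at log2 0.43 (15.4% called, median -0.15). There were 2 lower without FBSA 2, PFBS a or PFBS 2 and 14 without PFBS b, and 0 higher whichever library was left out. This list scored -0.26, -0.325 and -0.20 in FBSA 1, 2 and 3 and 0.03, 0.01 and -0.04 in PFBS a, 2 and b. The control libraries lay between, at -0.12, -0.15 and -0.08 in Control 1, 2 and 3, and 42FTS 1 scored -0.24. The one lower gene that passed in every alternative was sdhb, of complex II (97.8, 96.7 and 99.6 CPM in FBSA against 119, 125 and 115 CPM in PFBS, log2 -0.29), and 49 of the 65 were bounded.

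Lipid genes differed in both directions. Of 36 tested genes of fatty acid synthesis and storage 5 were higher and 7 lower, and 3 and 6 without FBSA 2. The elongase gene elovl7b had 39.2, 48.05 and 49.1 CPM in FBSA against 27.5, 24.2 and 28.7 CPM in PFBS (log2 0.76, SE 0.12, adjusted p = 0.00138). The gene hsd17b12a, which serves the same elongation cycle, had 72.1, 94.4 and 64.97 CPM in FBSA against 47.2, 46.3 and 38.8 CPM in PFBS (log2 0.81, SE 0.11, adjusted p = 0.000474). The elongase elovl2 (1.24, 1.66 and 0.967 CPM in FBSA against 2.23, 2.73 and 2.73 CPM in PFBS, log2 -0.99) and the desaturase fads2 (4.0003, 4.82 and 3.34 CPM in FBSA against 7.10, 6.76 and 7.13 CPM in PFBS, log2 -0.79), which make long polyunsaturated fatty acids, were lower, but their calls were each lost without FBSA 1, FBSA 3, PFBS 2 or PFBS b (log2 -0.96 to -0.82 and -0.81 to -0.66), and that of fads2 also without PFBS a (log2 -0.78). Their levels in PFBS were nominally below the control (log2 -0.55 and -0.51, not called). Higher members were 3 without FBSA 1 or PFBS 2, and lower members 4 without FBSA 1 or any 1 PFBS library. Of 39 sterol genes 2 were higher and 2 lower (10.3%, against 10.1% of all genes tested), with sqlea, of cholesterol synthesis, at log2 -0.78 (9.87, 10.204 and 9.48 CPM in FBSA against 14.9, 15.8 and 20.1 CPM in PFBS, SE 0.16, adjusted p = 0.00615), and the sterol regulator gene srebf2 bounded at log2 0.00 (CI -0.14 to 0.14). Without FBSA 2 1 was higher and 2 lower, 1 and 1 without FBSA 3 or any 1 PFBS library, and 2 and 1 without FBSA 1.

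Among 47 genes of fatty acid oxidation, PPAR targets and uncoupling 6 were higher and 3 lower (19.1%, against 10.1% of all genes tested). Without FBSA 2 the counts were 4 and 1. The lower members were 0 without PFBS a or PFBS 2, 1 without FBSA 3 and 6 without PFBS b. The uncoupling protein genes led the increases. The muscle form ucp3 had 7.40, 11.6 and 5.49 CPM in FBSA against 3.24, 2.09 and 2.70 CPM in PFBS (log2 1.61, SE 0.26, adjusted p = 0.00156). For ucp1 the levels were 30.5, 58.97 and 30.8 CPM in FBSA against 15.5, 15.5 and 15.5 CPM in PFBS (log2 1.37, SE 0.29, adjusted p = 0.0125). For ucp2 they were 225, 187 and 190.4 CPM in FBSA against 126, 149 and 151 CPM in PFBS (log2 0.50, SE 0.11, adjusted p = 0.00892). The family is named for a carrier that lets protons back across the inner membrane of mitochondria. What each of these proteins carries was not analysed here. In all 3 genes the FBSA and PFBS libraries did not overlap, as in 28.3% of all genes tested. Without FBSA 2 the log2 difference of ucp1 was 0.99. Of 33 apolipoprotein and liver secreted genes 5 were higher and 1 lower (18.2%), and 3 and 0 without FBSA 2. The yolk and lipoprotein gene apobb.1 had 5502, 5668 and 5526 CPM in FBSA against 4825, 4587 and 3882 CPM in PFBS (log2 0.33, SE 0.07, adjusted p = 0.00964). The gene apoa1b was bounded (CI 0.06 to 0.56). Higher members were 3 without FBSA 1, 1 without PFBS a and 2 without PFBS b, and lower members 2 without FBSA 3, 0 without PFBS a or PFBS 2 and 3 without PFBS b.

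Few genes of drug metabolism passed the test. Of 34 tested genes of the aryl hydrocarbon receptor and xenobiotic enzymes 2 were higher and 0 lower (5.88%), below the share of all genes tested, and 16 were bounded. The glutathione transferase gene gsto2 had 22.3, 27.05 and 23.9 CPM in FBSA against 16.8, 20.05 and 18.2 CPM in PFBS (log2 0.41, SE 0.09, adjusted p = 0.00919). Another transferase gene, gstm.1 (log2 0.38) lost its call without FBSA 1, FBSA 2, PFBS 2 or PFBS b (log2 0.30 to 0.41). The receptor gene ahr2 was bounded at log2 -0.05 (CI -0.16 to 0.07) and nqo1 at log2 0.02 (CI -0.29 to 0.33). The receptor's main target, cyp1a, had 8.35, 5.95 and 13.3 CPM in FBSA against 5.44, 4.85 and 4.89 CPM in PFBS, which did not pass the test (log2 0.86, CI 0.28 to 1.45, adjusted p = 0.0595). Its libraries did not overlap, as in 28.3% of all genes tested. Without PFBS 2, 1 gene of the list was higher and 1 lower.

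Polyamines are small cations of growing cells, and genes of their enzymes differed in both directions. The rate-limiting enzyme gene odc1 had 421, 525 and 442 CPM in FBSA 1, 2 and 3, 242, 227 and 204 CPM in PFBS a, 2 and b and 211, 252 and 235 CPM in Control 1, 2 and 3. For odc1 the log2 difference was 1.05 (SE 0.11, adjusted p = 0.000134). The antizyme gene oaz1b, whose protein inhibits that enzyme, had 206, 176 and 217 CPM in FBSA against 341, 341 and 318 CPM in PFBS (log2 -0.74, SE 0.07, adjusted p = 1.08e-05). In both, each FBSA library lay outside the range of every PFBS and control library, in opposite directions. The breakdown enzyme genes smox (128, 138 and 124 CPM in FBSA against 84.7, 82.3 and 81.1 CPM in PFBS, log2 0.65) and sat1a.2 (log2 0.56) were higher and the spermine synthase gene sms was lower (log2 -0.29), the last without its call when PFBS a was left out (log2 -0.27). The second antizyme gene oaz1a was bounded (CI -0.31 to 0.01). Of 30 polyamine and purine genes 6 were higher and 4 lower, 3 and 2 without FBSA 2, 3 higher without PFBS b, and 2 lower without any 1 PFBS library.

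Of 35 genes of intestine, kidney and pancreas 7 were higher and 0 lower (20%, against 10.1% of all genes tested). The somatostatin gene sst2 was at log2 1.57 (8.32, 12.6 and 11.8 CPM in FBSA against 4.43, 2.86 and 3.69 CPM in PFBS). The phosphate transporter gene slc20a1b was at log2 0.82 (394, 452 and 359.8 CPM in FBSA against 237, 218 and 230.3 CPM in PFBS). In this list 2 were higher without FBSA 2 and 4 without PFBS a or PFBS b, with 1 lower without PFBS 2 or PFBS b. Of 31 genes of the swim bladder, claudins and polarity 8 were higher and 1 lower, 3 higher without FBSA 2 and 5 without PFBS a or PFBS 2 and 0 lower without PFBS 2, with cldnh at log2 0.71 (52.8, 58.002 and 53.002 CPM in FBSA against 32.2, 35.4 and 32.7 CPM in PFBS). Of 46 genes of collagen and cartilage 6 were lower and 1 higher, 4 and 0 without FBSA 2, 0 higher without any 1 PFBS library, and the abundant genes col1a1b (CI -0.01 to 0.23) and col1a2 (CI -0.12 to 0.13) were bounded. Of 30 vessel genes 3 were higher and 1 lower (13.3%, against 10.1% of all genes tested), 1 higher without FBSA 2 or PFBS b and 0 lower whichever library was left out, and the scavenger receptor gene stab2 passed throughout (16.7, 21.1 and 16.5 CPM in FBSA against 11.2, 10.9 and 10.5 CPM in PFBS, log2 0.74).

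In red cells, pigment, lens and segment identity few genes or none passed the test. Called were 0% of red cell, 6.9% of pigment, 7.5% of lens and eye and 7.25% of retinoic acid and Hox genes. With 5.48% of ribosomal protein genes, all these shares were below the 10.1% of all genes tested. Of 24 red cell and globin genes 0 were called by edgeR, 1 without PFBS b, and the band 3 gene slc4a1a was bounded (CI -0.39 to 0.09). Of 29 pigment genes 2 were lower, 0 without FBSA 2, PFBS 2 or PFBS b and 1 without FBSA 3 or PFBS a, and tyrp1b was bounded (CI -0.14 to 0.34). Of 40 lens and eye genes 1 was higher and 2 lower, 0 lower without FBSA 2 or PFBS 2, 1 lower without FBSA 3 or PFBS b, 2 higher without PFBS 2, and the crystallin genes crybb1 (CI -0.11 to 0.17) and cryba1b (CI -0.06 to 0.28) were bounded. Of 69 retinoic acid and Hox genes 4 were higher and 1 lower, 7 higher without FBSA 1, 2 lower without FBSA 1 or FBSA 3 and 0 lower without any 1 PFBS library. Of these genes 51 were bounded, and hoxa2b, of the hindbrain, had the largest called difference (25.6, 28.9 and 24.6 CPM in FBSA against 17.6, 19.5 and 18.2 CPM in PFBS, log2 0.52). Of 73 ribosomal protein genes 4 were higher, 2 without FBSA 2, PFBS a or PFBS b, and 62 were bounded, with rpsa at log2 0.25 (CI 0.16 to 0.35).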

How the data were processed

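Messenger RNA of pooled zebrafish embryos was sequenced in 15 libraries, 3 for each of 5 groups. Per the submitters' processing notes HISAT2, HTSeq, Bowtie2, RSEM, DESeq2 and the genome build GRCz11 were used, and versions and roles are not given in the sources used here. The authors deposited raw read counts per gene, whole numbers that were not normalized, together with category lines for reads in no gene, in several genes, not aligned or aligned to several places. These lines were left out of library sizes and tests; reads not aligned made up 6.32 to 6.55% and reads aligned to several places 15.0 to 15.6% of the totals in FBSA and PFBS libraries. A second table deposited by the authors gives TPM per library and their own log2 fold changes and q-values, but holds only genes with a q-value under 0.05 for FBSA against the control, so it was used for 2 levels and for no test. A further 51 per-sample columns were not used. A name with a suffix such as _1 is a second entry of a gene whose place in the genome is not given, and 99 of the 2423 called genes are such entries. They are not named.

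Counts were filtered (filterByExpr, 23874 of 47048 entries kept) and TMM-scaled, and fitted with edgeR 4.0.16 in R 4.3.3 as a robust quasi-likelihood model of all 15 libraries with the group as the only term. CPM are edgeR counts scaled to TMM-adjusted library size, so levels of different genes were not compared per length. The contrast FBSA minus PFBS is the comparison; both were also set against the control. A difference was called at an adjusted p of 0.05, and bounded where its 95% CI lay within 1.5-fold. The fit was tested on simulated data of the same design, with the same spread in every group. It recovered 28.4% of 1.5-fold, 62.7% of 2-fold and 95.5% of 4-fold changes, and 4.62% of its calls were false. A wider spread within FBSA was not simulated, so these shares do not cover it. In the simulation 67, 67 and 66 of 23874 genes were changed by these folds, all at 1 CPM or more on average. Far more genes, 2423, were called in the data. The share recovered depends on how many genes change, so these shares are not those of the real comparison. Changes in genes under 1 CPM were not simulated.

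Named genes are the 12 largest differences each way at a mean of at least 1 CPM without overlap of the groups, and for each list up to 4 called members each way and up to 2 bounded ones of highest level. All tested carbonic anhydrase, xenobiotic, transporter and sodium pump genes and tissue markers could be named as well. Of 1695 listed symbols 1593 matched by symbol and 59 by an older name. The lists, the members and the pair of compounds were chosen with earlier results of these data known. Alternatives were DESeq2 size factors, no filter, summed suffixed entries, the compared groups alone, DESeq2 1.42.0, and each library left out.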

Additional observations from a re-analysis of the deposited data

How the results depend on the processing

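All 2423 called genes kept the sign of their difference with each of the 6 libraries left out. In 2384 of them the FBSA and PFBS libraries did not overlap, so this outcome was nearly fixed by the choice of called genes. The number of genes that differed between FBSA and PFBS ranged from 1159 without FBSA 2 to 2242 without FBSA 1. It was 934 in the fit of these 6 libraries alone, 874 of them among the 2423, and 829 with at least a 1.5-fold difference asked for as well. DESeq2 size factors gave 2455, no filter 2097, summed suffixed entries 2915 and DESeq2 3337. The number of bounded genes was 8454 to 9446 with a library left out. FBSA against the control gave 1020 to 2108 with a library left out and 855 in the fit of those groups alone. PFBS against the control gave 0 to 1 with a library left out, 1 with those groups alone and 6 by DESeq2. Higher calls outnumbered lower ones (1234 and 1189), but not with DESeq2 size factors (1198 and 1257), by DESeq2 (1609 and 1728) or without PFBS b (766 and 876). The causes of these shifts were not tested. Of 351 called genes in the lists or named, 154 passed under every alternative, 174 lost the call in the fit of the 6 libraries alone and 140 without FBSA 2.

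No paired analysis was possible because 2 of the PFBS columns share a header name and columns were matched by name alone, so FBSA and PFBS have only the number 2 in common. For FBSA and the control a replicate block gave 528 genes, 394 higher and 134 lower. Deviations of libraries with the same number had correlations of 0.04, -0.06 and 0.02 over all genes tested. These values show no pairing across all genes, but could miss a pairing that touches only some of them. The labels give no pairing beyond the number, so the block is not used above.

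Depth limits what is said of genes under 1 CPM, none of which was bounded and 1.18% of which were called. Both compounds were compared at 1 concentration and 1 time, in whole embryos.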

Other observations

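A run of neighbouring cathepsin L-like genes, which includes ctslb of the hatching gland list, was chosen after its values were seen. Between htr7 and pank1b in the gene order of the RefSeq assembly GRCz12tu, 13 entries were tested. Of the 11 with other than LOC names 10 were called higher in FBSA than in PFBS, against 5.17% of all genes tested. Log2 differences over the 11 were 0.76 to 2.30, with a median of 1.31. The LOC entries averaged under 1 CPM in each group and were not called: LOC108180223 at log2 1.48, and LOC101886821 the other way at log2 -0.86. For LOC101886821 PFBS was above the control (log2 2.22, not called). For si:dkey-26g8.5 the levels were 84.3, 85.5 and 89.9 CPM in FBSA 1, 2 and 3, 14.8, 18.8 and 18.9 CPM in PFBS a, 2 and b and 29.1, 31.6 and 37.98 CPM in Control 1, 2 and 3 (log2 2.30, SE 0.20, adjusted p = 3.66e-05). The FBSA libraries lay within a narrow range far above all others, and the PFBS libraries lay below the control libraries. In 10 of the 11 the PFBS mean was below the control mean, with log2 differences of -0.91 to 0.16, none of them called by edgeR, while DESeq2 called si:dkey-26g8.5 between PFBS and the control. In the authors' deposited table MGC174155, of the same run, is the 1 gene of the 1909 listed with a q-value under 0.05 for PFBS against the control. The sign of the authors' difference is not given here. In the counts used here MGC174155 averaged 15.6 CPM in PFBS and 16.4 CPM in the control (log2 -0.08, not called). Its PFBS and control libraries overlapped, so the authors' q-value has no counterpart in these counts. The sequences of the genes of this run were not compared here. Reads could be split between similar copies, so single members are uncertain.

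Single genes with small p-values, also chosen after their values were seen, belonged to several systems. The anion exchanger gene slc4a2a had 57.8, 47.7 and 54.8 CPM in FBSA against 21.8, 18.4 and 20.9 CPM in PFBS (log2 1.39, SE 0.09, adjusted p = 1.22e-06). The lysosomal phospholipase gene pla2g15 had 255, 259.7 and 254 CPM in FBSA against 157, 149 and 151 CPM in PFBS (log2 0.75, SE 0.06, adjusted p = 7.34e-06). The GABA-degrading transaminase gene abat had 18.6, 21.9 and 17.7 CPM in FBSA against 4.53, 5.81 and 8.27 CPM in PFBS (log2 1.65, SE 0.18, adjusted p = 7.6e-05), and the amino acid transporter gene slc43a2a 229, 230.4 and 205 CPM in FBSA against 133, 122 and 134 CPM in PFBS (log2 0.77, SE 0.08, adjusted p = 3.66e-05). In each of these 4 genes the lowest FBSA library was above the highest PFBS library, as was true of 14.6% of all genes tested. The GTPase-activating protein gene agap2 was lower, with 14.7, 14.3 and 13.1 CPM in FBSA against 22.4, 24.1 and 22.9 CPM in PFBS (log2 -0.72, SE 0.07, adjusted p = 4.67e-05). For agap2 all FBSA libraries lay below all PFBS libraries, as in 13.7% of all genes tested.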
